A study of Mus musculus with 4 samples.

Results

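The genes examined were 8 that mark adipose progenitors: Pdgfra, Pdgfrb, Cd34, Ly6a, Dpp4, Pi16, Thy1 and Eng. All ATAC-seq peaks with a summit within 50 kb of any annotated transcription start site (TSS) of these 8 genes were taken, and peaks of different libraries that overlapped were joined into 1 site. This gave 109 sites of 100904 in the whole series. ATAC-seq marks open chromatin, because the Tn5 transposase inserts adapters where DNA is accessible. Accessibility was measured here, not expression.

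The libraries were made from im-scWAT cells, that is, stromal vascular cells from the subcutaneous white adipose tissue of 5-week-old mice that were immortalised with SV40 large T antigen carried by a retrovirus. WT cells came from Jmjd1a +/+ mice and HY cells from Jmjd1a HY/HY mice, in which a histidine-to-tyrosine change removes the activity of this histone H3 lysine 9 demethylase. Each genotype was taken on day 0 (D0), at confluence before differentiation, and on day 8 (D8). D8 cells had received indomethacin, dexamethasone, 3-isobutyl-1-methylxanthine, rosiglitazone, insulin and T3, followed by insulin, T3 and rosiglitazone, which drives them towards beige adipocytes. There were 4 libraries, 1 per group and no replicate, so each comparison is between those libraries and each interval covers counting error only. WT and HY cells were separate cultures, so the genotype and the culture cannot be told apart.

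Adipose progenitors are fibroblast-like cells of the stromal vascular fraction. Pdgfra and Pdgfrb encode the receptors for platelet-derived growth factors that are used to trace these cells. Dpp4 and Pi16 mark an early progenitor of the connective tissue around fat depots, and Cd34, Ly6a (Sca-1), Thy1 (CD90) and Eng (CD105) are surface proteins used to sort progenitors and mesenchymal stromal cells. As progenitors become adipocytes they largely stop making these proteins and turn on genes of lipid storage. Cd34 and Eng are also made by endothelial cells, and Pdgfrb by the mural cells that wrap vessels.

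The peak lists held 41228 to 77994 peaks. The background rate of a library, which is proportional to its depth, was 0.659 (WT) and 0.708 (HY) on D0 and 0.531 (WT) and 0.494 (HY) on D8. Peak height is given as the summit pileup, the number of overlapping tags at the summit, and the smallest pileup called was 4 in HY D8 and 5 in the other libraries. A ratio of pileups between libraries is always divided by the ratio of their background rates and is given with its 95% interval. Where values stand in pairs, WT comes first. Distances are from the nearest annotated TSS of the gene unless stated, negative when upstream, and coordinates are mm9.

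Promoter peaks of these genes were called more often on D0 than on D8. A promoter peak, with its summit from 1000 bp upstream to 100 bp downstream of a TSS, was found on D0 for 7 of the 8 genes in WT and 4 in HY, and on D8 for 2 in each genotype. Over all protein-coding genes the shares were 53.6% and 54.5% on D0 and 49.7% and 50.5% on D8. The HY D0 count of 4 (50%) is near the share over all genes. Pdgfra was counted in WT D0 alone, since its summit lay past 100 bp downstream in the other libraries. Pi16 and Eng, also counted in WT D0 and not in HY D0, had WT D0 pileups of 10. Cd34, Ly6a and Thy1 had one on D0 in both genotypes and none on D8 in either, which is 3 of the 4 genes with a D0 promoter peak in both genotypes. Over all protein-coding genes with promoter peaks at D0 in both genotypes, 6.02% had none on D8 in either. No gene of the 8 gained a promoter peak on D8 in both genotypes, against 2.00% of all protein-coding genes with D8 promoter peaks in both. In bulk cells, fewer progenitors in the culture and less open chromatin per cell cannot be told apart.

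**Figure D1:**
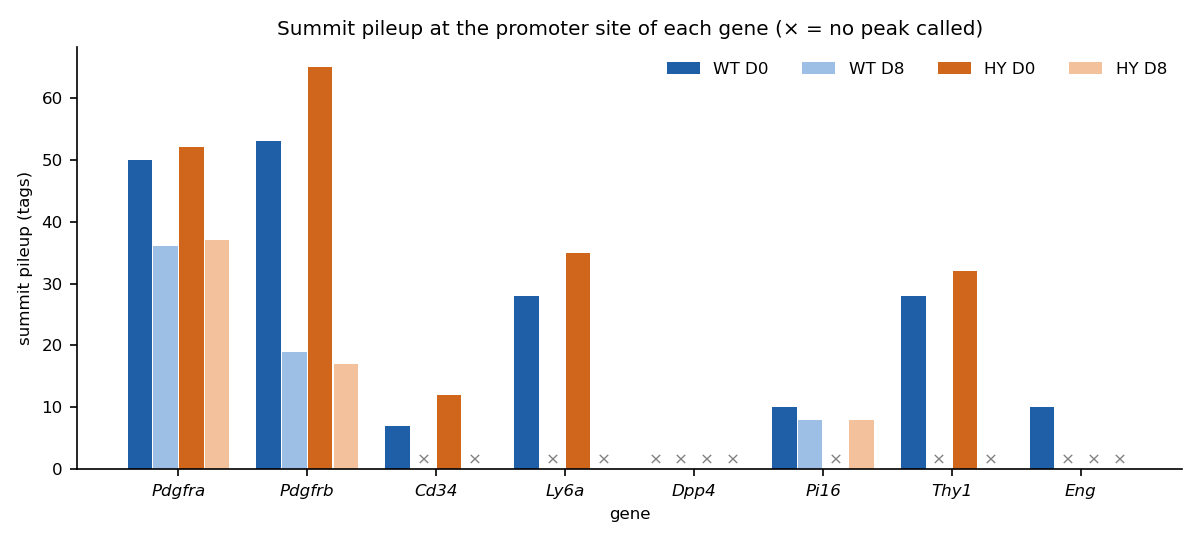
Summit pileup (tags, vertical axis) at the promoter site of each of the 8 genes in the 4 libraries, 1 bar per library, with a cross where no peak was called. Cd34, Ly6a and Thy1 have bars on D0 only, Pdgfra and Pdgfrb have bars in all 4 libraries, and Dpp4 has none.

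Among the receptors, Pdgfra and Pdgfrb kept an open promoter through differentiation, but at different heights. The Pdgfra site at chr5:75551757-75552594 covers its second annotated TSS and lies in a UTR exon. Its pileup was 50 in WT and 52 in HY on D0, and 36 in WT and 37 in HY on D8. The D8 to D0 WT ratio was 0.894 (0.566 to 1.40) and the HY ratio 1.02 (0.650 to 1.58), so no difference between days was detectable at this depth. The summit lay within 100 bp of the TSS in WT D0 alone. With the promoter extended to 500 bp downstream, a window chosen after seeing the data, the counts of genes with a promoter peak were 7 and 5 on D0 and 3 and 3 on D8, and 3 of 5 genes open on D0 in both genotypes had none on D8.

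At the Pdgfrb promoter, chr18:61204426-61205068, the pileup was 53 in WT and 65 in HY on D0, and 19 in WT and 17 in HY on D8. Both D8 libraries lay below both D0 libraries. The D8 to D0 WT ratio was 0.445 (0.249 to 0.764) and the HY ratio 0.375 (0.206 to 0.647), and both intervals exclude 1. The genotypes did not differ detectably at this site, with an HY to WT ratio of 1.14 (0.782 to 1.67) on D0 and 0.961 (0.469 to 1.95) on D8.

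Away from the promoters, Pdgfra and Pdgfrb had several sites with peaks on D0 alone. The Pdgfra site in its first intron at chr5:75549481-75549625 had a pileup of 29 in WT and 20 in HY on D0 and no D8 peak. Scaled to the D8 depth, these pileups would have been 23.4 and 14.0, above the smallest callable pileups of 15 and 12. These limits rest on the D0 local background, which was 6.70 in WT and 5.38 in HY. At the promoter site the D8 background was 2.85 and 3.36, so the limits may be too high. The site at -6.8 kb, chr5:75541451-75541644, had 12 in WT and 8 in HY on D0 and no D8 peak. Its scaled HY value of 5.59 was just above the smallest callable pileup of 5, so the lack of an HY D8 peak rests on little depth. A peak at +0.8 kb was called in HY D0 alone, with a pileup of 18. All 5 Pdgfra sites lay nearest to Pdgfra itself.

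The strongest site near Pdgfrb outside its promoter was at -34.7 kb, chr18:61169885-61170518, in an intron of Slc6a7, a gene for an amino acid transporter. Its pileup was 40 in WT D0, 43 in HY D0 and 6 in HY D8, and it had no peak in WT D8. The HY ratio was 0.200 (0.0695 to 0.471). Inside Pdgfrb, the intronic site at +13.3 kb had 32 and 16 on D0 and 10 and 9 on D8. It was lower on D8 in WT, with a ratio of 0.388 (0.170 to 0.809), while the HY ratio of 0.806 (0.314 to 1.94) has an interval that includes 1. On D0 it was lower in HY than in WT, with a ratio of 0.466 (0.239 to 0.874). The intronic site at +9.5 kb had 22 in WT D0, 27 in HY D0 and 11 in HY D8, with no WT D8 peak. The site at +23.3 kb was the single one of the 109 with peaks in HY on both days and none in WT, at 17 on D0 and 8 on D8, where 0.899% of all sites had this pattern, and no site had the reverse one, against 0.321%.

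**Figure D2:**
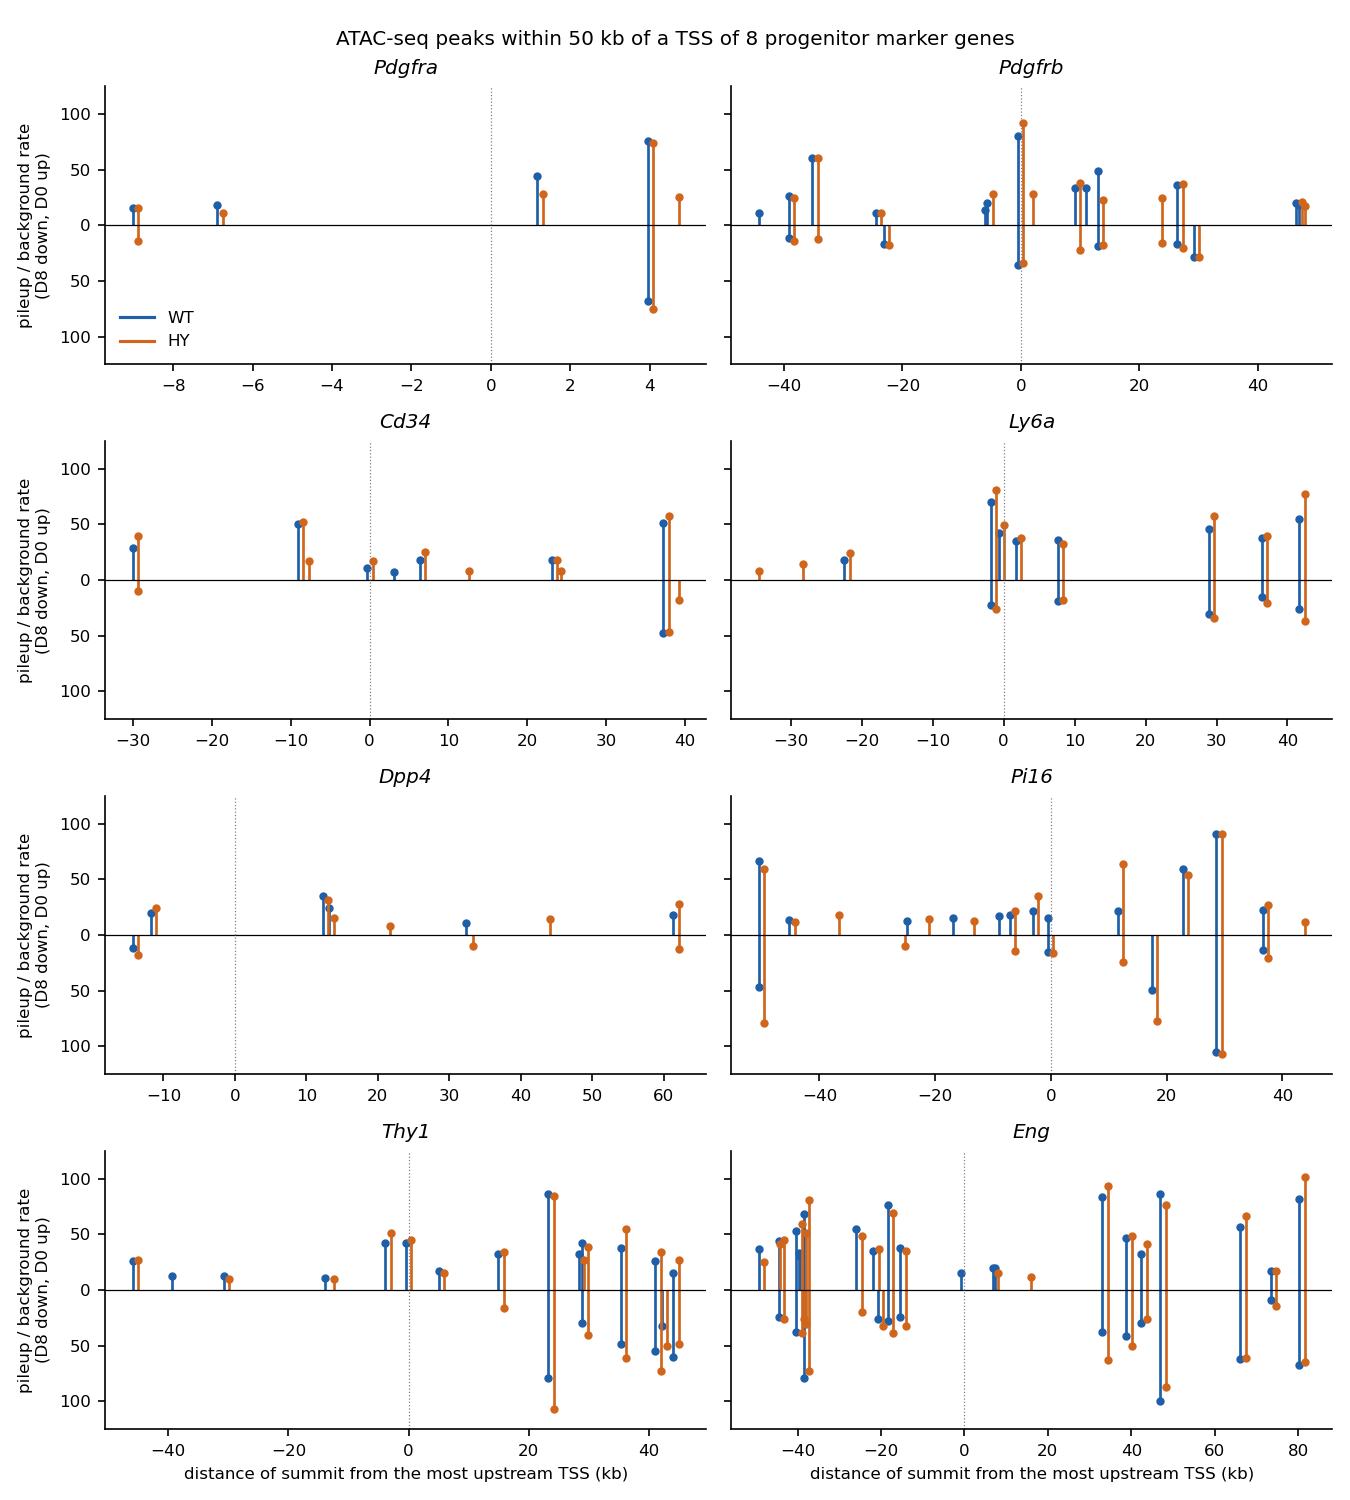
Summit pileup divided by the background rate of the library (vertical axis, D0 upwards and D8 downwards) against the distance of the summit from the most upstream TSS of the gene (kb), for WT (blue) and HY (orange), which are set slightly apart. Around Cd34, Dpp4 and the sites upstream of Thy1, lines point mostly upwards, while Mtch1 (downstream of Pi16), Usp2 (downstream of Thy1) and the genes around Eng give lines in both directions.

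Among the surface proteins used for sorting, Cd34, which encodes a sialomucin, had an upstream site and a promoter open on D0 alone. Its promoter, chr1:196764903-196765289, had a pileup of 7 in WT and 12 in HY on D0 and no D8 peak. The scaled WT value of 5.64 was just above the smallest callable pileup of 5, so the lack of a WT D8 peak at this promoter rests on little depth. The upstream site at chr1:196755654-196756491, 8.7 kb before the TSS, was much stronger, with 33 in WT and 37 in HY on D0, and also had no D8 peak. Scaled to D8 depth these would have been 26.6 and 25.8, against a smallest callable pileup of 7 in both D8 libraries. At -29.7 kb the pileup was 19 in WT D0, 28 in HY D0 and 5 in HY D8, with no WT D8 peak. Of the 6 Cd34 sites with D0 peaks in both genotypes, 4 (66.7%, 22.3% to 95.7%) had no D8 peak, against 42.8% of all such sites, which lies within the interval. The exception among its strong sites was at +37.6 kb, beyond the 3′ end of Cd34 in an exon of A330023F24Rik, with 34 and 41 on D0 and 25 and 23 on D8 and a WT ratio of 0.913 (0.522 to 1.58) and an HY ratio of 0.803 (0.460 to 1.37).

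The sequence of the stronger Cd34 site that closed and of its promoter are shown because both were open on D0 alone. They run 5′ to 3′ on the strand of the gene and are cut from the mm9 reference at chr1:196756181-196756380 and chr1:196764955-196765034. Capitals mark the letters TTGCNNAA (C/EBP) and TTGGCA (NFI), which stand next to each other in the upstream site. The promoter stretch, shortened to 80 bases of which the last 20 are UTR, held none of the 6 motifs searched, while the whole 200 bp around the summit held 1 GC box (GGGCGG).
Cd34 upstream site: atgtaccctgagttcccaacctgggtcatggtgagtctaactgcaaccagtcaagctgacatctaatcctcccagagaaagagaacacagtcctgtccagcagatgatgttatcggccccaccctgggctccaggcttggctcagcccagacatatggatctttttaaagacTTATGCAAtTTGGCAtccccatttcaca
Cd34 promoter: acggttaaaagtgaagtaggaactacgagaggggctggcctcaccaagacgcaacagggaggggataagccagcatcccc

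Thy1, a small GPI-anchored protein, had 2 strong sites open on D0 alone, its promoter and a site 3.4 kb upstream. The promoter, chr9:43851001-43851587, had a pileup of 28 in WT and 32 in HY on D0. The upstream site, chr9:43847844-43848375, had 28 in WT and 36 in HY on D0. Scaled to D8 depth, all 4 of these values would have been between 22.3 and 25.1, against smallest callable pileups of 8 to 10. In all, 6 of the 12 Thy1 sites with D0 peaks in both genotypes (50%, 21.1% to 78.9%) had no D8 peak, near the 42.8% of all such sites. Sites downstream lay mostly in or near Usp2, a ubiquitin protease gene, and went both ways. The Usp2 promoter at +23.7 kb had 57 and 60 on D0 and 42 and 53 on D8, with a WT ratio of 0.915 (0.599 to 1.39) and an HY ratio of 1.26 (0.857 to 1.86). The intronic site at +35.7 kb, where Usp2 and Rnf26 overlap, had 25 and 39 on D0 and 26 and 30 on D8, with ratios of 1.29 (0.716 to 2.33) and 1.10 (0.661 to 1.82). The Usp2 intron at +28.8 kb had 21 and 19 on D0 and no D8 peak. At the far end, the site at +44.5 kb had 10 and 19 on D0 and 32 and 24 on D8, with a WT ratio of 3.97 (1.91 to 9.06) and an HY ratio of 1.81 (0.9497 to 3.49). The site at +41.5 kb had 17 and 24 on D0 and 29 and 36 on D8, with ratios of 2.12 (1.13 to 4.11) and 2.15 (1.25 to 3.76). Both D8 libraries were above both D0 libraries at +41.5 kb and +44.5 kb.

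The Thy1 sequences are shown because the upstream site held 3 matches to TGANTCA (AP-1), in capitals, more than any other site shown, while the promoter stretch held none of the 6 motifs. They are the mm9 plus strand at chr9:43847936-43848135 and chr9:43851340-43851486.
Thy1 upstream site: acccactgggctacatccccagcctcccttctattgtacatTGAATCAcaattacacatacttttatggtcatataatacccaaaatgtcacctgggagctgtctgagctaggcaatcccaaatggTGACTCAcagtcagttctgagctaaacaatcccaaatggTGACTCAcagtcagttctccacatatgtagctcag
Thy1 promoter: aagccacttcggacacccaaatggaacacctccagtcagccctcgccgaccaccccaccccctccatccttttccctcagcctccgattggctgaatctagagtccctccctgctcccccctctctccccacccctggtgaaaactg

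Ly6a, which encodes the stem cell antigen Sca-1, had an open promoter on D0 alone and a weaker neighbour on D8. The promoter site, chr15:74828146-74828783, had a pileup of 28 in WT and 35 in HY on D0 and no D8 peak. Scaled to D8 depth these would have been 22.6 and 24.4, against smallest callable pileups of 15 and 14, which were high because the local background was high. The next site upstream, chr15:74829026-74830143 at -1.4 kb, kept its peak, with 46 and 57 on D0 and 12 and 13 on D8. Its WT ratio was 0.324 (0.156 to 0.621) and the HY ratio 0.327 (0.164 to 0.604). The promoter of the neighbouring family member Ly6e at +42.0 kb had 36 and 55 on D0 and 14 and 18 on D8, with ratios of 0.483 (0.241 to 0.917) and 0.469 (0.259 to 0.810). The intergenic site at +29.3 kb had 30 and 41 on D0 and 16 and 17 on D8, with ratios of 0.662 (0.337 to 1.25) and 0.594 (0.316 to 1.07), and both intervals include 1. All 5 Ly6a sites with D8 peaks in both genotypes also had D0 peaks, and none of its 10 sites was open on D8 alone. The Ly6 genes are close copies of each other, and reads that match several copies may be placed on any of them or dropped.

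The Ly6a promoter sequence, on the strand of the gene (minus), is chr15:74828277-74828476 of mm9. It held none of the 6 motifs.
Ly6a promoter: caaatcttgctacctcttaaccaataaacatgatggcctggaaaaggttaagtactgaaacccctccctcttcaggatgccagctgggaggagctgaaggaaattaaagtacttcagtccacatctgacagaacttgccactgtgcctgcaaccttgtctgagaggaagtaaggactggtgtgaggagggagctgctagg

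Eng, an accessory receptor for ligands of the TGF-beta family, had little signal at its own promoter. A promoter peak, chr2:32501883-32502390 in an intron annotated to Ak1, was called in WT D0 alone, with a pileup of 10. The strongest site within Eng lay in an intron at chr2:32535504-32536283, 33.7 kb after its first TSS, and had 55 in WT and 66 in HY on D0, and 20 in WT and 31 in HY on D8. Its WT ratio was 0.451 (0.256 to 0.765) and the HY ratio 0.673 (0.424 to 1.05), and the difference between genotypes in this ratio was not tested. Most other sites near Eng belong to neighbouring genes. The sites at +15.1 kb in Fpgs and at +48.4 kb in Sh2d3c had peaks in all 4 libraries with pileups of 57 and 54 on D0 and 53 and 43 on D8 for the former and 54 and 72 on D0 and 36 and 32 on D8 for the latter. Of the 17 sites near Eng with D0 peaks in both genotypes, 3 (17.6%, 3.799% to 43.4%) had no D8 peak, against 42.8% of all such sites, which lies just within the interval.

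The markers of the early progenitor, Dpp4 and Pi16, had weak promoters. Dpp4, a membrane-bound dipeptidyl peptidase, had no promoter peak in any library. Its strongest site was intronic, 12.7 kb after the first TSS at chr2:62236986-62237904, with a pileup of 23 in WT and 22 in HY on D0 and no D8 peak. Scaled to D8 depth these would have been 18.5 and 15.4, against smallest callable pileups of 7 and 6. The intronic site 61.7 kb after the first TSS, close to an internal start, had 12 and 20 on D0 and, on D8, 6 in HY and no peak in WT. The site at -11.4 kb had 13 and 17 on D0 and no D8 peak. Of the 4 Dpp4 sites with D0 peaks in both genotypes, 3 (75.0%, 19.4% to 99.4%) had none on D8, against 42.8% of all such sites, and no Dpp4 site was open in all 4 libraries.

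Pi16, which encodes a secreted protein of the CAP family, had a promoter peak, chr17:29455751-29455955, of 10 in WT D0, 8 in WT and 8 in HY on D8, with none in HY D0. The WT ratio of 0.993 (0.341 to 2.79) leaves a difference between days undetectable. Stronger sites lay downstream, around Mtch1, a gene for a mitochondrial outer membrane protein. The site in an intron of Mtch1 at +22.9 kb, chr17:29478527-29479293, had 39 in WT and 38 in HY on D0 and no D8 peak. It was the highest of the sites near the 8 genes that were lost in both genotypes. A second site in the same gene at +17.5 kb, chr17:29473566-29473930, had the reverse pattern, with no D0 peak and 26 in WT and 38 in HY on D8. It was the highest of the sites near the 8 genes that were gained in both. The intergenic site at +11.7 kb had 14 and 45 on D0 and, on D8, 12 in HY and no peak in WT. Its HY to WT ratio on D0 of 2.99 (1.61 to 5.90) was the single one of 69 above 2. The Mtch1 promoter at +28.7 kb had 60 and 64 on D0 and 56 and 53 on D8, with ratios of 1.16 (0.790 to 1.70) and 1.19 (0.808 to 1.73).

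These Mtch1 sites are shown because they lie in the same gene and had opposite patterns. They are the mm9 plus strand at chr17:29478979-29479178 and chr17:29473611-29473810. Capitals mark GGAATG (TEAD) in the site open on D8, and the site open on D0 held none of the 6 motifs.
Mtch1 intron site open on D0: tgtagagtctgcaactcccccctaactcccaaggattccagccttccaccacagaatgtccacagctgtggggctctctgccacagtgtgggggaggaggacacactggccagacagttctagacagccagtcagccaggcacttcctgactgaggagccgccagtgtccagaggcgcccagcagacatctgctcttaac
Mtch1 intron site open on D8: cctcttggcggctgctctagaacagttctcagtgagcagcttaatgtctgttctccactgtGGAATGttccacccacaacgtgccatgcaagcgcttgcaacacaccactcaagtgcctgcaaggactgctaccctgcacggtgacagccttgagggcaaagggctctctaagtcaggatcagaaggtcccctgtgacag

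Counted over all 109 sites, the windows closed about as much as the genome as a whole. Of the 69 sites with D0 peaks in both genotypes, 28 (40.6%, 28.9% to 53.1%) had no D8 peak in either, against 42.8% of all such sites. In WT, 51 of 83 D0 sites (61.4%, 50.1% to 71.9%) had no D8 peak, against 60.0%, and in HY 44 of 86 (51.2%, 40.1% to 62.1%), against 57.1%. These shares are near the background and are not a result about the 8 genes. Scaled to D8 depth, 50 of the 51 WT sites and 44 of the 44 HY sites would have reached the smallest callable pileup, compared with 90.9% and 92.5% of all sites of the same kinds, although a peak expected near this limit can be missed by counting error. With lists of equal length the shares near the 8 genes were 44.9% in WT and 36.0% in HY, against 42.5% and 40.5% of all sites in the same lists. The part of depth in these losses was not tested.

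**Figure D3:**
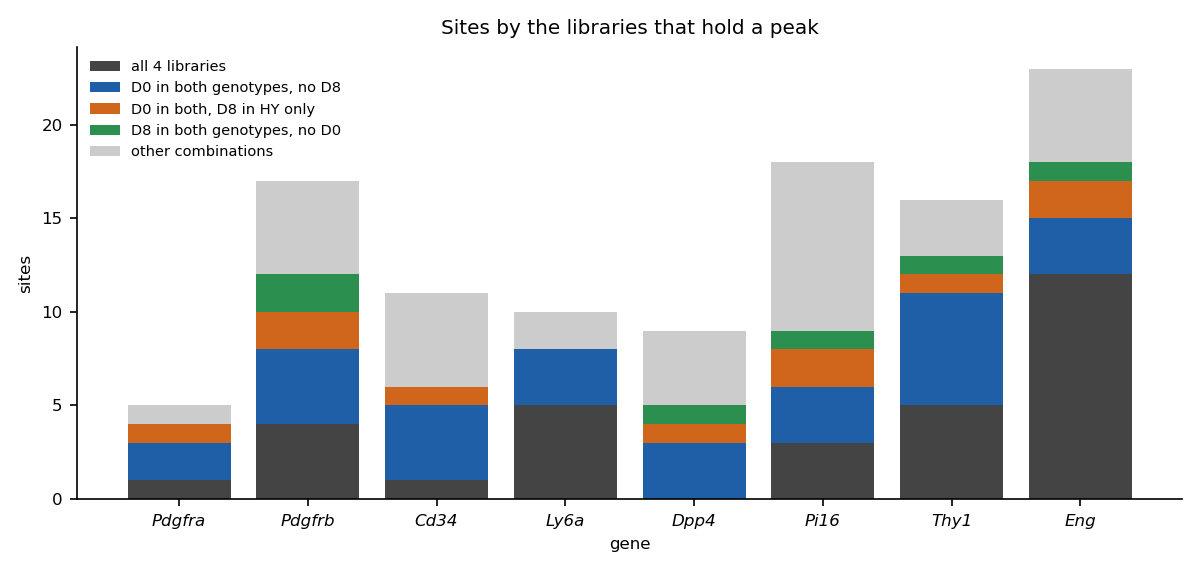
Number of sites (vertical axis) within 50 kb of a TSS of each gene, split by the libraries that held a peak. Of the sites with D0 peaks in both genotypes, the share with no D8 peak ranged from 17.6% at Eng to 75.0% at Dpp4, around the 42.8% of all sites, and blocks for D8 in HY alone appear at 7 of the 8 genes.

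Sites whose nearest protein-coding TSS was that of the marker gene itself were also counted alone. There were 54 such sites, and of the 31 with D0 peaks in both genotypes 19 (61.3%, 42.2% to 78.2%) had no D8 peak, against 42.8% of all sites, which lies just within the interval. At promoters of other genes in the windows, 2 of 17 (11.8%) had none, and at the remaining sites 7 of 21 (33.3%). The kinds of site differ over the whole series too. Counted per genotype, 19.1% (WT) and 18.2% (HY) of all D0 promoter sites had no D8 peak, against 70.1% and 65.8% outside promoters. In WT, 32 of 40 sites nearest to the marker genes (80%, 64.4% to 90.9%) had no D8 peak, an interval above the 60.0% of all sites. Promoters closed less often in general, so these sites were also compared outside promoters, where 28 of 33 (84.8%, 68.1% to 94.9%) had no D8 peak against 70.1% of all sites, which lies within the interval. In HY, 28 of 41 (68.3%, 51.9% to 81.9%) and, outside promoters, 25 of 36 (69.4%, 51.9% to 83.7%) had none, against 57.1% and 65.8% of all sites, both within the intervals.

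Of the sites that kept a peak on both days, 25 of 32 in WT (78.1%) and 32 of 42 in HY (76.2%) were lower on D8, against 61.1% and 60.4% of all such sites. In WT, the 8 such sites nearest to a marker gene had a median log2 ratio of D8 to D0 of -1.13, against -0.50 for the 24 nearest to another gene, and 5 of the 8 and 4 of the 24 were at least 2-fold lower on D8. The 5 were the Pdgfrb promoter, the Pdgfrb introns at +13.3 kb and +26.8 kb, the Ly6a site at -1.4 kb and the Eng intron. Of the 24 others, 13 were promoters of other genes. This comparison was not made outside promoters, so the part of site type was not tested. In HY the medians were close, -0.58 over 13 sites nearest to a marker gene and -0.63 over 29 others, and 4 of the 13 and 5 of the 29 were at least 2-fold lower. Over all sites near the 8 genes, the median log2 ratio was -0.50 in WT (32 sites) and -0.60 in HY (42 sites), against -0.16 and -0.18 over all sites of the series. The 95% interval of the median over sites, which are not replicates, was -0.95 to -0.13 in WT, which includes the value over all sites, and -0.78 to -0.26 in HY. With -log10 q of at least 5 the medians were -0.27 and -0.36, against -0.10 and -0.067 over all sites. At least 2-fold lower were 9 of 32 in WT (28.1%, 13.7% to 46.7%) and 9 of 42 in HY (21.4%, 10.3% to 36.8%), against 14.7% and 17.2% of all sites, both within the intervals, and at least 2-fold higher were 2 of 32 and 1 of 42, against 4.79% and 5.28%. All 3 of the higher values came from the Usp2 sites at +41.5 kb and +44.5 kb of Thy1.

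**Figure D4:**
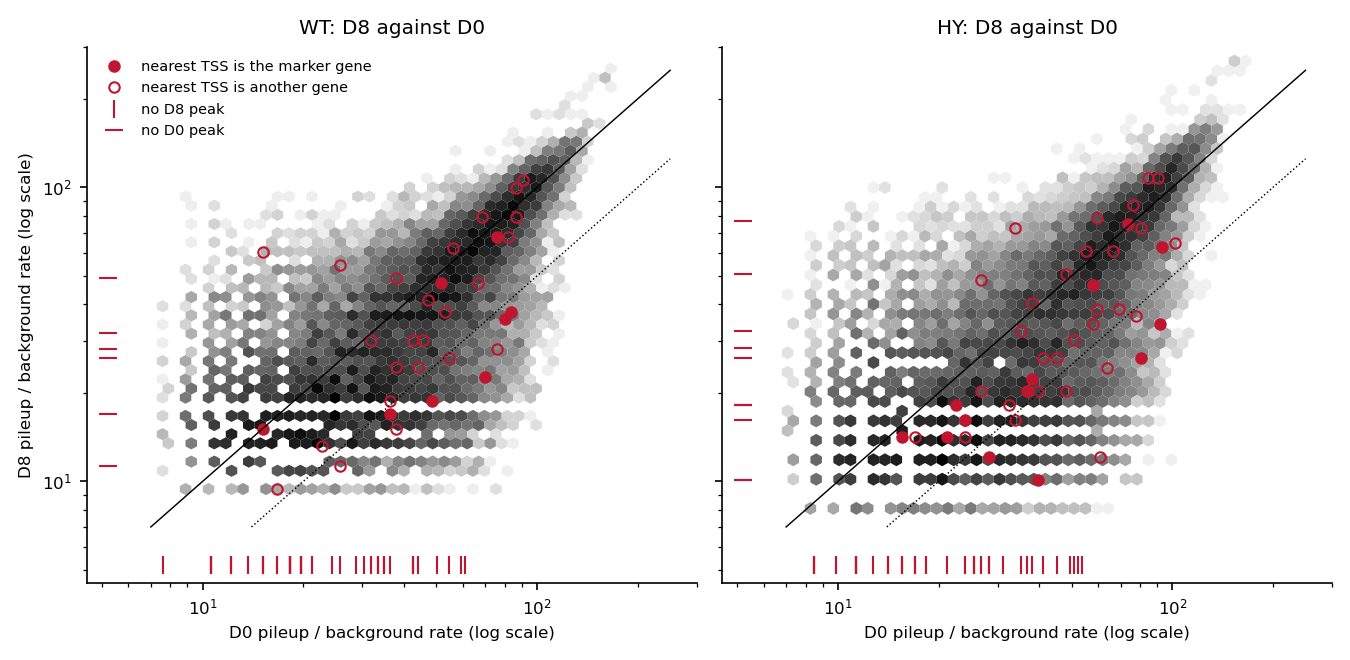
D8 against D0 summit pileup, each divided by the background rate of its library, on log axes, for WT (left) and HY (right). Grey cells hold all sites of the series with peaks on both days (darker for more sites), filled red points are sites whose nearest TSS is 1 of the 8 genes, open red points are other sites of the windows, ticks at the edges are sites with a peak on 1 day, and the solid and dotted lines mark equal values and a 2-fold lower D8 value. Of the filled points with peaks on both days, 5 of 8 in WT and 4 of 13 in HY lie on or below the dotted line.

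Sites that opened on D8 were counted in the same way. With D8 peaks in both genotypes and no D0 peak in either there were 6 of 38 sites (15.8%, 6.02% to 31.3%), against 18.8% of all such sites. In WT, 6 of 38 D8 sites (15.8%, with the same interval) had no D0 peak, against 25.7%, and in HY 11 of 53 (20.8%, 10.8% to 34.1%), against 27.1%. Each background share lies within the interval, so these counts are not a result about the 8 genes. The WT share was 28.9% with lists of equal length, against 37.4% of all sites in those lists, and 26.2% when summits had to lie within 250 bp, against 32.3%. All 6 shared gains were intronic, and only the Pdgfrb intron at +29.6 kb, with 15 in WT and 14 in HY on D8, lay inside 1 of the 8 genes. The others were the Mtch1 site at +17.5 kb of Pi16, a Usp2 site at +42.6 kb of Thy1 (17 in WT and 25 in HY on D8), an Ak1 site at -20.1 kb of Eng (14 and 16), a Cdx1 site at -22.7 kb of Pdgfrb (9 and 9) and a site in Gm13561 at -13.9 kb of Dpp4 (6 and 9). Neither D0 library had a peak at any of them.

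The gained sites in Usp2 and Ak1 are shown because both hold TTGGCA (NFI), in capitals. The Ak1 site also holds CCCNNGGG (EBF), in capitals. They are the mm9 plus strand at chr9:43894011-43894210 and chr2:32481929-32482128.
Usp2 intron site: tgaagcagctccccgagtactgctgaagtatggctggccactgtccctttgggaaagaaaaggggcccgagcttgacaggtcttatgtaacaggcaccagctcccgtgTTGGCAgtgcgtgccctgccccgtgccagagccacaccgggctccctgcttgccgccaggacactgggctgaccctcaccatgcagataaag
Ak1 intron site: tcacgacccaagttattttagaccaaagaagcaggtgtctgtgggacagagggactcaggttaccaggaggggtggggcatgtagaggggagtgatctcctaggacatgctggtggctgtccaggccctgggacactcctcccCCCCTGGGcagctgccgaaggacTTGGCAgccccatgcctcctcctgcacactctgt

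Motif letters were counted on both strands in 200 bp around each summit, for AP-1 (TGANTCA), TEAD (GGAATG), C/EBP (TTGCNNAA), EBF (CCCNNGGG), NFI (TTGGCA) and the GC box (GGGCGG). AP-1 letters stood in 10 of the 28 sites lost in both genotypes (35.7%), against 31.8% of all lost sites, and in 3 of the 31 sites open in all 4 libraries (9.68%), against 15.6% of all such sites. Over all sites the share was 22.0%. Among the 6 gained sites none had AP-1 letters and 4 had NFI letters, against 7.01% and 27.4% of all gained sites. TEAD letters stood in 2 of the 6 gained sites (33.3%), against 12.0% of all gained sites, and in 4 of the 28 lost sites (14.3%), against 21.8% of all lost sites. With 6 gained and 28 lost sites, these counts are a description only. These letters are a description and not evidence that a factor was bound.

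Genotypes were compared on the same day. On D0, 14 of 83 WT sites (16.9%, 9.54% to 26.7%) had no HY peak, against 15.5% of all sites, and 17 of 86 HY sites (19.8%, 11.96% to 29.8%) had no WT peak, against 24.7%. On D8, 0 of 38 WT sites had no HY peak, an exact interval of 0% to 9.25%, against 12.9% of all sites (3 counts of the 38, the limit used for a count of 0, would be 7.90%). The share stayed 0 within 25 kb and for sites nearest to a marker gene. It was 2.33% within 100 kb and 2.38% when 50% of the peak had to be covered. With lists of equal length it was 7.89% (18.2% of all sites), with summits within 250 bp 7.14% (17.6%) and with -log10 q of at least 5 3.85% (14.6%). In the other direction, 15 of 53 HY D8 sites (28.3%, 16.8% to 42.3%) had no WT D8 peak, against 29.1%. The 15 HY pileups at these sites ranged from 5 to 15 with a median of 8. All 15 would have reached the smallest callable pileup at the depth of WT D8. WT D8 was the deeper library, so scaling raised each pileup and this outcome was nearly fixed in advance. It says nothing about a difference between the genotypes. Of these 15 sites, 10 had D0 peaks in both genotypes, 14.5% (7.17% to 25.04%) of the 69 such sites, against 11.7% of all such sites. No site near the 8 genes had D0 peaks in both genotypes and a D8 peak in WT alone, against 3.29% in the series. The 10 sites lay near Pdgfra, Pdgfrb (2), Cd34, Dpp4, Pi16 (2), Thy1 and Eng (2), with HY pileups of 11 to 45 on D0 and 5 to 15 on D8. Their scaled HY ratios of D8 to D0 ran from 0.200 to 0.911, and 4 of the 10 intervals lay below 1.

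Where both genotypes had a peak, heights were mostly within 2-fold of each other. On D0 the median log2 ratio of HY to WT was 0.07 over 69 sites, against 0.08 over all sites, and 1 site was at least 2-fold lower and 1 at least 2-fold higher, against 1.41% and 2.23%. These were the Pdgfrb intron at +13.3 kb and the site at +11.7 kb of Pi16. On D8 the median was 0.24 over 38 sites, against 0.15, and none was at least 2-fold lower or higher, against 0.510% and 1.68%. Scaled by promoters open in all 4 libraries, the medians were -0.020 against -0.016 over all sites on D0 and 0.081 against -0.011 on D8, so the sign of the D0 median, and of the median over all sites on both days, rests on the scaling. At promoters with a peak in both genotypes on D0, the HY to WT ratio was 1.60 (0.579 to 4.79) for Cd34, 1.16 (0.688 to 1.99) for Ly6a, 1.06 (0.621 to 1.83) for Thy1 and, at the site over its second TSS, 0.968 (0.644 to 1.46) for Pdgfra, and each interval includes 1.

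Promoters of related and unrelated lists give the setting of the 8 genes. Of 20 other progenitor and stromal genes, 17 (WT) and 16 (HY) had promoter peaks on D0 and 10 and 13 had them on D8. Of the 16 open on D0 in both genotypes, 3 had none on D8 in either: Dact2, Dcn, which encodes the matrix proteoglycan decorin, and Zfp423, a regulator of preadipocyte commitment. The Zfp423 call did not hold with the window extended to 500 bp downstream, where HY D8 had a peak of 21. In all 4 libraries 10 of the 20 were open, among them Vim, the mesenchymal intermediate filament, with 65 and 77 on D0 and 45 and 45 on D8. Nt5e, another of the 10, went the other way, with 18 and 23 on D0 and 36 and 40 on D8. The summed promoter pileup of this list was 515 and 567 on D0 and 243 and 288 on D8, and that of the 8 marker genes was 186 and 144 on D0 and 27 and 25 on D8. With the window extended to 500 bp downstream, which takes in the Pdgfra site in all 4 libraries, the sums of the 8 genes were 186 and 196 on D0 and 63 and 62 on D8. Of 12 adipocyte genes, 6 had a promoter peak in each D0 library and 11 in each D8 library, and 5 gained one in both genotypes, including Adipoq (26 in WT and 25 in HY on D8) and Fabp4 (46 and 46).

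**Figure D5:**
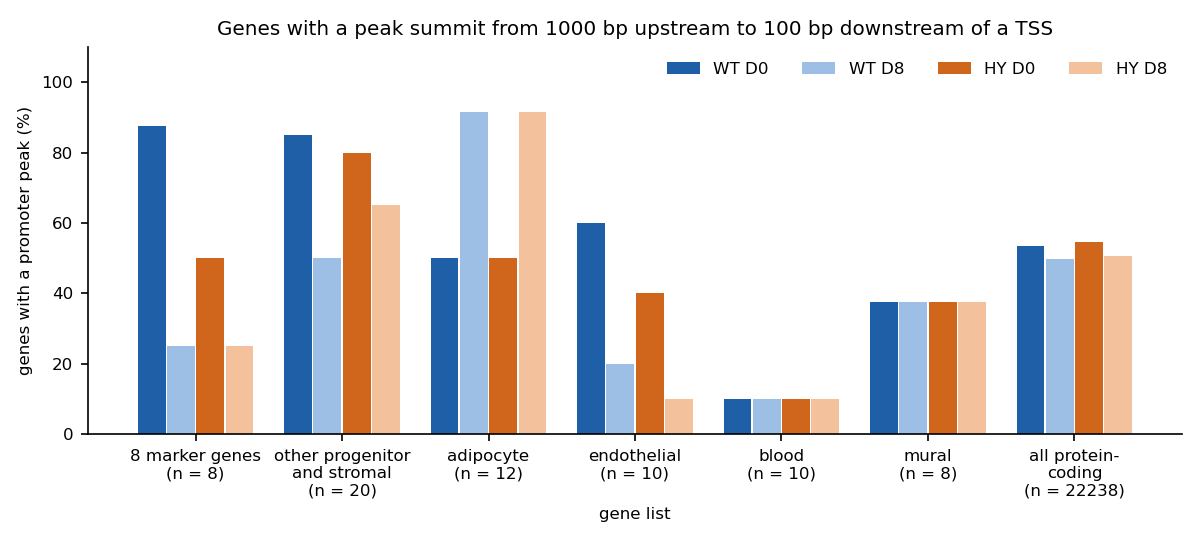
Share of genes with a promoter peak (%, vertical axis) in each of the 4 libraries for the 8 marker genes, 5 other lists and all protein-coding genes, with the number of genes under each list. The 8 marker genes, the 20 other progenitor genes and the endothelial list have lower D8 than D0 bars in both genotypes, the adipocyte list has higher D8 bars, and all protein-coding genes stay between 49.7% and 54.5%.

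Markers of other cells moved in part with the 8 genes. Of 10 endothelial genes, 6 (WT) and 4 (HY) had promoter peaks on D0 and 2 and 1 had them on D8, and their summed promoter pileup was 84 and 71 on D0 and 16 and 4 on D8. With the window extended to 500 bp downstream, the HY D8 values were 2 genes and a sum of 18, since a Flt1 peak of 14 was then counted. The angiopoietin receptor gene Tek (23 in WT and 19 in HY on D0) and Vwf (13 and 17) had no D8 promoter peak. The receptor gene Kdr had 21 and 21 on D0 and 4 in HY on D8, Esam had 10 and 14 on D0 and 5 in WT on D8, Pecam1 had 9 in WT D0 alone, and Flt1 had 8 and 11 in WT on D0 and D8. The other 4, Cdh5, Erg, Emcn and Cldn5, had no promoter peak in any library. Of 8 mural genes, 3 had a promoter peak in each library, but only Acta2 and Notch3 had one in all 4. The summed pileup of the list was 81 and 81 on D0 and 27 and 70 on D8, and 43 of the 70 came from Mcam, which had no such peak in HY D0 or WT D8. The genes Cspg4, Rgs5, Kcnj8 and Abcc9 had none. Of 10 blood genes, only Lck had one, in all 4 libraries, and Ptprc had none. The part of endothelial or mural cells in the signal at Cd34, Eng and Pdgfrb was not tested.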

How the data were processed

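The 4 ATAC-seq libraries, 1 per genotype and day, were grouped by their sample labels. The authors deposited 1 MACS narrowPeak list per library, made on mm9 from Bowtie2 alignments with duplicates removed (Picard, SAMtools). Versions, the calling threshold and any shift of read ends for the Tn5 offset are not given in the sources used here, and such a shift moves a summit by a few bp. The deposited fold is the ratio of summit pileup to local background within a library, and the deposited -log10 p and -log10 q belong to the same summit. The deposited score, a rescaled -log10 q, was not used.

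Pileup and background were solved from the fold and -log10 p, with a whole-number pileup found for 100% of peaks (tolerance 0.002). The lowest background of a list gave its relative depth: D8 had 0.806 of the D0 depth in WT and 0.698 in HY, and HY had 1.07 of the WT depth on D0 and 0.931 on D8. The number of reads is unknown. Sites joined peaks of the 4 lists that overlapped by at least 1 bp. TSSs came from GENCODE vM1. A site belonged to a gene when the summit of any of its peaks lay within 50 kb. Shares have exact binomial 95% intervals, and pileup ratios exact conditional binomial ones. The smallest callable pileup is the one reaching the lowest -log10 p of the list at the scaled local background. That background was taken from the library that held the peak, not from the one without it. No p-values were computed, since no group had a replicate. Windows overlap neighbouring genes, and a site is assigned by distance only.

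The members and lists were chosen with earlier results of these data known. Named sites were, per gene, the promoter and the 3 others with the highest pileup and, over all genes, the 5 strongest sites lost and the 5 gained in both genotypes and those open in 1 genotype on both days. The Dpp4 gain, the Pdgfrb intron at +26.8 kb and the Thy1 sites at +28.8 kb and +44.5 kb were named after their values were seen. From other lists, up to 4 genes were named, those with a promoter peak on 1 day only first. Nt5e was added after its values were seen. More genes are named where they define a cell type. Sequences and motif letters came from the NCBIM37 (mm9) reference. The scripts were tested on simulated data (Python 3.11.15, SciPy 1.17.1). Alternatives covered the joining of peaks, list length, window, scaling and promoter window.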

Additional observations from a re-analysis of the deposited data

Results flagged for a closer look

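At 7 sites open in all 4 libraries, the log2 ratio of D8 to D0 had opposite signs in WT and HY. The values were -0.16 in WT and 0.027 in HY at the Pdgfra promoter, -0.50 and 0.41 at the BC004004 promoter site farthest upstream of Pi16, -0.13 and 0.34 at the Usp2 promoter at +23.7 kb of Thy1, and -0.50 and 0.085 at the Usp2 intron at +29.4 kb of Thy1. Near Eng they were 0.21 and -0.14 at -37.9 kb, -0.18 and 0.074 at +6.9 kb, and 0.15 and -0.13 at +34.3 kb. All 14 of the 95% intervals of these ratios include no change, so no direction was established at any of them. With 1 library per group, the difference between genotypes was not tested at any of these sites.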

How the results depend on the processing

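The share of D0 sites with no D8 peak in WT was 44.9% with lists of equal length, 74.0% within 25 kb, 50% within 100 kb, 80% for sites nearest to a marker gene and 76.7% when a D8 peak had to cover 50% of the D0 peak. In HY it was 36.0% with equal lists, 62.7% within 25 kb, 68.3% for the nearest sites and 67.8% at 50% cover. With 50% cover, 29.9% of 87 HY D0 peaks had no WT D0 peak and 43.1% of 58 HY D8 peaks no WT D8 peak. No share over all sites is given for this cover. For the nearest sites, 8 of 18 HY D8 sites (44.4%, 21.5% to 69.2%) had no WT D8 peak, against 29.1% of all sites, which lies within the interval. With equal lists this share was 18.6%, against 21.3% of all sites. The share of WT D8 sites with no D0 peak was 28.9% with equal lists and 26.2% with summits within 250 bp, against 15.8%. The median log2 ratio of D8 to D0 was -1.13 in WT for the nearest sites and -1.12 in HY with no scaling. Scaling by 10646 promoters open in all 4 libraries turned the D0 median of HY to WT to -0.020, the Pdgfra and Pi16 HY to WT ratios on D8 to 0.991 and 0.964, the Thy1 ratio on D0 to 0.997 and the Pi16 WT ratio of D8 to D0 to 1.02. With no scaling, the Pdgfra ratios became 0.712 for D8 to D0 in HY and 1.04 for HY to WT on D0. The cause was not tested where a value moved. Over all alternatives, 44 shares, 25 medians and 20 promoter ratios stayed within the interval of the reported value, and 12 counts of genes stayed within 1.5 times. The BC004004 promoter site upstream of Pi16 lay at the edge of the window, with its nearest summit at 49.9 kb and pileups of 44, 25, 42 and 39 in WT D0, WT D8, HY D0 and HY D8. The next site outside, at 50.4 kb of Thy1, had 7 in WT D0 alone. No fit with a replicate block was made, since each group held 1 library. The D8 to D0 ratios pair the days within each genotype, and a fit over these 2 pairs was not run.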
